A study of Mus musculus with 42 samples.

Results

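The genes described here are the 65 protein-coding mouse genes that encode the replication-dependent histones and that the deposited expression files list, out of 47719 listed gene identifiers. They were chosen by name alone: a gene was taken when its GENCODE M21 symbol, matched through the Ensembl identifier, begins with Hist1h, Hist2h, Hist3h or Hist4h. Of the 70 genes with such a symbol, 3 are annotated as pseudogenes and were left out by the rule, and 2 protein-coding ones (Hist1h2bh and Hist1h2bm) were not analysed here. The 65 genes comprise 6 for the linker histone H1, 18 for H2A, 16 for H2B, 12 for H3 and 13 for H4. On GRCm38, 52 lie in the Hist1 cluster on chromosome 13 (chr13:21715763-23934851), 10 in the Hist2 cluster on chromosome 3 (chr3:96219865-96270132), 2 on chromosome 11 (chr11:58948920-58956830) and 1 on chromosome 6 (chr6:136801553-136804415).

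RNA was measured in 3 fractions of mouse spleen, B cells, T cells and what the labels call non-BT cells, without treatment, from animals carrying either normal Psmb8 alleles (+/+, wild type) or the G201V allele on both chromosomes (Psmb8 G201V/G201V, homozygous). Psmb8 encodes a catalytic subunit of the immunoproteasome. There were 42 libraries in 12 groups: 3 libraries for each combination of cell fraction and genotype in animals labelled Old, and 4 in animals labelled Young. The young wild-type library numbered 4 of each fraction carries a genotype label that names Psmb9 in place of Psmb8, so 3 libraries rest on that reading of the label. The labels give neither ages in weeks, strain and sex nor a method of cell separation, and nothing in them states that same-group libraries come from separate animals, so the p-values measure the spread between these libraries. A base change such as G201V cannot be seen in gene-level values, so the genotype labels were not checked by it.

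In a dividing cell, the replication-dependent histone genes are switched on together as DNA synthesis begins and supply the core histones H2A, H2B, H3 and H4, which wrap the new DNA into nucleosomes, and H1, which binds the DNA between them. Their mRNAs have no introns as a rule and end, unlike other mRNAs, in a short stem-loop that is bound by the protein SLBP instead of a poly(A) tail, after cleavage that uses the U7 small nuclear RNP. Some of the genes also give polyadenylated transcripts that run past the stem-loop, known from differentiated and resting cells. The cDNA kit named in the labels starts from poly(A), so the levels below are those of histone RNA that such priming reached, not of all histone mRNA. They are given as FPKM, fragments per kilobase of transcript, scaled to the mapped fragments of the library, and fewer cells of a type cannot be told apart from less RNA per cell in these bulk libraries.

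The letters of the stem-loop were searched in the annotated transcripts as GGNNNTTTTCANNNCC with the first 6 and last 6 bases complementary to each other, on the transcript's own strand. Of the 65 genes, 33 (50.8%) had a coding transcript with this motif, against 38 of 21866 protein-coding genes in the annotation (0.174%). The sequences below, from GENCODE M21 transcripts on GRCm38, belong to genes on which later results turn. They are written as DNA from 5′ to 3′ with the stem-loop in capitals.
Hist1h4c: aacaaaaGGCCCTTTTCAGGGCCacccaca
Hist1h1c: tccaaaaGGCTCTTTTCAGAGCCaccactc
Hist3h2a: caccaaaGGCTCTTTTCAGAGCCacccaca
Hist3h2ba: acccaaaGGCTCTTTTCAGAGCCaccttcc
Hist1h2ae: taaaaaaaacaaaGGCTCTTTTCAGAGCCa
Hist1h2ap: gaaaaaaaaaaaaGGCTCTTTTCAGAGCCa
Hist1h2ao: gaaaaaaaaaaaaGGCTCTTTTCAGAGCCa

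Positions given here are those of the 30 printed bases, which include the stem-loop and bases beside it. The H4 gene Hist1h4c has them at chr13:23698082-23698111 on the minus strand, and its annotated transcript continues for 454 bases beyond the stem-loop. The linker gene Hist1h1c (chr13:23739505-23739534, plus strand) continues for 840 bases, the H2A gene Hist3h2a (chr11:58955165-58955194, plus strand) for 1643 bases and the H2B gene Hist3h2ba (chr11:58949342-58949371, plus strand) for 169 bases. The H2A gene Hist1h2ae (chr13:23570667-23570696, minus strand) continues for 151 bases. The annotated transcripts of the H2A genes Hist1h2ao (chr13:21810885-21810914, plus strand) and Hist1h2ap (chr13:21833028-21833057, minus strand) stop 31 and 3 bases after the stem-loop. Directly before the stem-loop these last 2 genes hold an uninterrupted run of 12 As, and the printed stretch is identical in both. A run of at least 12 As occurred in 3 of the 65 genes (4.62%) and in 9.3% of protein-coding genes.

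By the end of the longest annotated transcript, 16 histone genes stop 3 to 51 bases after the stem-loop, 16 run 151 to 4884 bases past it, and 33 have no such letters in it. The median of the genes' mean levels was 4.23 FPKM for those that run past, 1.23 FPKM for those that stop soon after and 0.738 FPKM for those without the letters. Of the 12 genes with the highest mean level, 7 belong to the first kind, 2 to the second and 3 (Hist1h2bc, Hist2h2ac and Hist1h4i) to the last. Hist1h2bc, the highest of all, is annotated with 2 exons, an unusual form among these genes.

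Levels were uneven. Of the 65 genes, 15 reached 1 FPKM in all 42 libraries, 34 had a mean under 1 FPKM over the libraries, and 8 reached 1 FPKM in none. None was at 0 in every library, but Hist1h1t, a testis linker histone, and Hist1h2aa, a testis H2A, were each above 0 in 1 library. The 12 highest genes held 64.6% to 87.1% of the summed FPKM of all 65 (median 74.7%), and the 3 highest (Hist1h2bc, Hist1h4c and Hist1h1c) held 27.3% to 54.0%. The 12 H3 genes together held 0.76% to 5.15% of that sum.

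**Figure D1:**
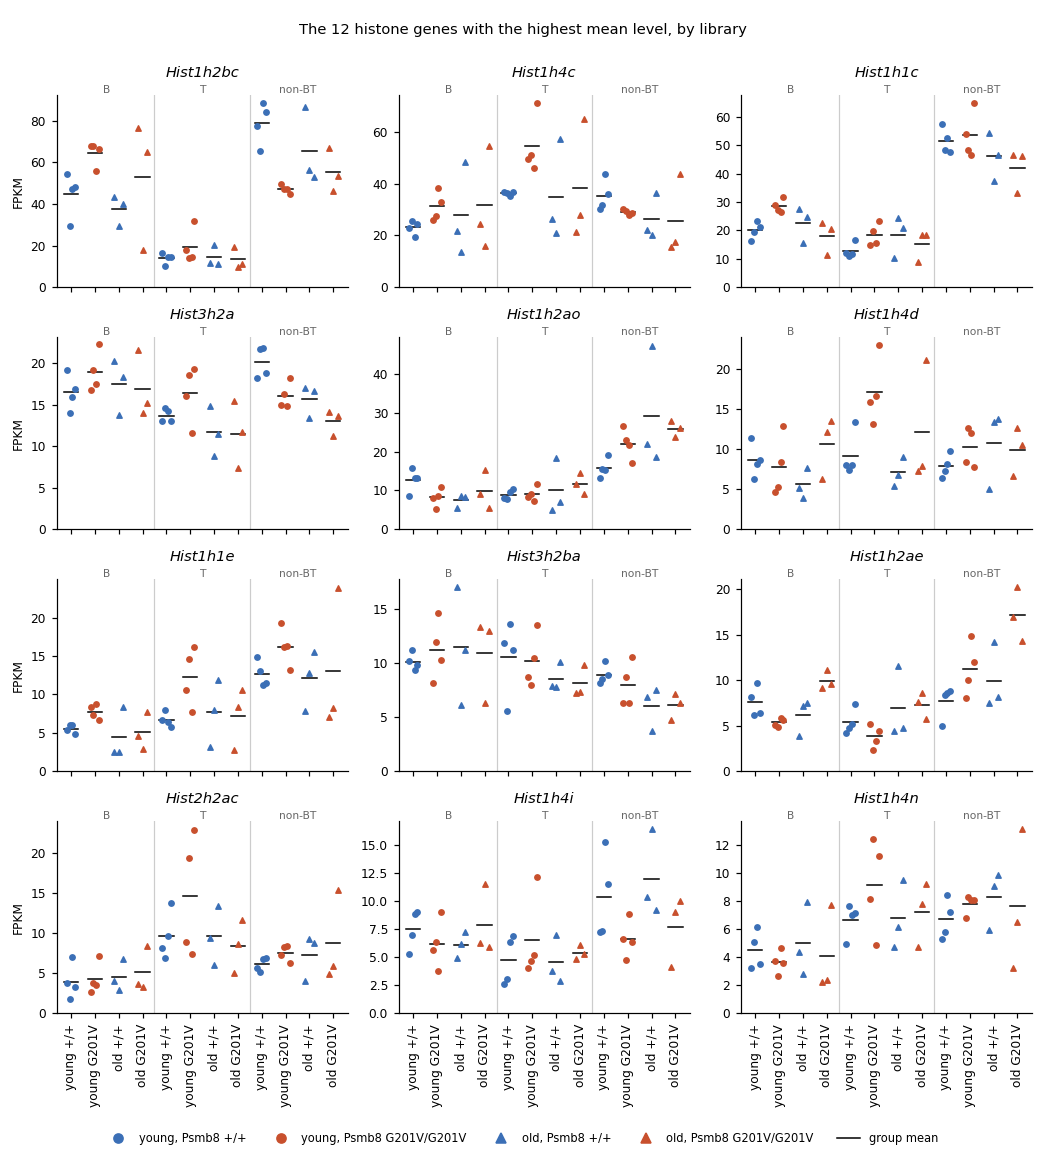
FPKM of the 12 histone genes with the highest mean level over 42 libraries; each point is a library, the columns are the 12 groups ordered by cell fraction, and the black line is the group mean. Hist1h2bc is low in T cells (9.79 to 31.9 FPKM), Hist1h1c is highest in non-BT cells (33.2 to 64.7 FPKM), and Hist1h2ao reaches 47.4 FPKM in an old wild-type non-BT library.

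The linker histones were led by Hist1h1c, a somatic H1 that is also made outside S phase. In the 14 libraries of each fraction, its level was 22.6 ± 5.74 FPKM (mean ± SD) for B, 16.1 ± 4.91 for T and 48.8 ± 7.83 for non-BT cells. The lowest non-BT library, at 33.2 FPKM, lay above the highest B library, at 31.9 FPKM, and the highest T library, at 24.2 FPKM. Hist1h1e, another somatic H1, had 5.84 ± 2.17 FPKM for B, 8.60 ± 3.87 for T and 13.6 ± 4.60 for non-BT cells, with overlap between all 3 fractions.

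Among the H2A genes, Hist3h2a had 17.5 ± 2.82 FPKM for B, 13.6 ± 3.33 for T and 16.5 ± 3.08 for non-BT cells (SD over 14 libraries each), with overlap between the fractions. In young wild-type animals it was among the genes called higher in non-BT than in T cells in the test described below. Hist1h2ao had 9.66 ± 3.51, 9.80 ± 3.40 and 22.6 ± 8.45 FPKM in B, T and non-BT cells. Hist1h2ap had 4.05 ± 1.54, 4.63 ± 1.88 and 8.50 ± 2.35 FPKM. Hist1h2ao and Hist1h2ap share most of their sequence with other genes. Only 6.90% and 7.35% of the 75-base windows of their transcripts occur in no other gene. How the authors' program divided reads between them and their relatives is therefore uncertain.

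The H2B gene Hist1h2bc was the highest histone gene in 13 of 14 B libraries and 11 of 14 non-BT libraries. Its level was 50.6 ± 17.3 FPKM for B, 15.5 ± 5.78 for T and 61.9 ± 16.2 for non-BT cells (SD, n = 14 each), and 72.9% of its windows are its own. In T cells the H4 gene Hist1h4c was the highest in 13 of 14 libraries, at 41.6 ± 15.7 FPKM, against 28.2 ± 11.7 in B cells and 29.5 ± 8.70 in non-BT cells. Hist1h4d, an H4 gene that encodes the same kind of protein, had 8.17 ± 3.18, 11.7 ± 5.65 and 9.61 ± 2.91 FPKM in B, T and non-BT cells.

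Summed over each class, the young wild-type B libraries held 31.2 to 36.1 FPKM of H1, 52.3 to 59.5 of H2A, 58.0 to 78.4 of H2B, 2.76 to 5.13 of H3 and 46.4 to 50.6 of H4. The young wild-type non-BT libraries held 72.6 to 88.1 FPKM of H1, 64.2 to 83.1 of H2A, 105 to 132 of H2B, 8.59 to 10.2 of H3 and 56.6 to 86.3 of H4. In young wild-type T cells the sums were 22.5 to 26.7 FPKM for H1, 45.8 to 61.1 for H2A, 35.4 to 47.4 for H2B, 2.85 to 9.44 for H3 and 59.7 to 75.2 for H4. H3 was thus the lowest class in all 12 of these libraries, and H1, H2A and H2B were higher in every non-BT library than in any B or T library.

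**Figure D2:**
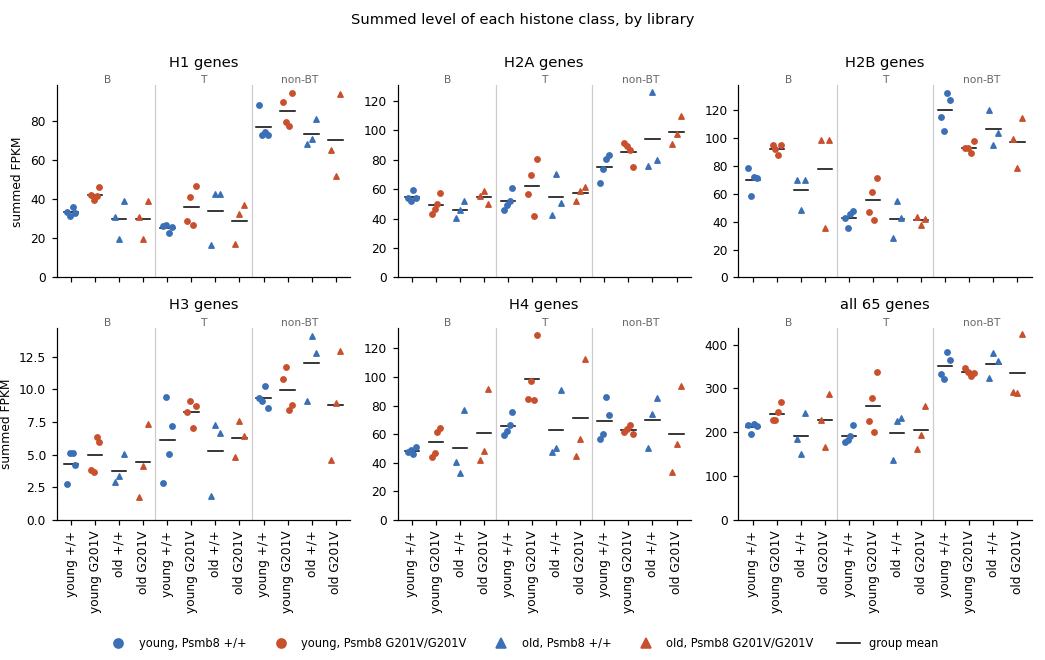
Summed FPKM of the genes of each histone class and of all 65 genes, by library (points) and group (columns; black lines are means; each panel has its own scale starting at 0). Over all 65 genes, the young wild-type libraries held 195 to 219 FPKM in B cells, 177 to 216 in T cells and 321 to 384 in non-BT cells.

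The depth was estimated from the smallest steps of the FPKM values, since the files give no counts, at 9580000 to 25760000 fragments per library (median 18680000). Libraries of a group correlated at Pearson's r = 0.963 to 0.987 over genes on the log2 scale. The summed level of 8 B cell markers was 6332 to 7106 FPKM in the young wild-type B libraries and 51.1 to 103 FPKM in the other 2 fractions, and 9 T cell markers summed to 3418 to 3647 FPKM in T cells and 56.5 to 85.2 FPKM in B cells. The non-BT libraries held 282 to 345 FPKM of the T cell markers beside 1227 to 1683 FPKM of 5 NK cell markers and 9177 to 11800 FPKM of 6 neutrophil markers. The library numbered 2 had the highest mean level of 24 mitosis genes in each of the 6 old groups. Library names fall into 3 runs of consecutive numbers, called library series here, which hold the old libraries numbered 1 and 2, then the old ones numbered 3 with the young ones numbered 1 and 2, then the young ones numbered 3 and 4.

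Differences between groups were tested with limma on log2(FPKM + 1) over all genes that reached 1 FPKM in at least 3 libraries of the fit, with Benjamini-Hochberg adjustment and a threshold of 0.05. Of the 65 histone genes, 37 passed this filter in B cells, 41 in T cells, 47 in non-BT cells and 51 over all 42 libraries. A log2 difference below is on this log2(FPKM + 1) scale, which understates the change of low genes.

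Between the cell fractions of young wild-type animals, the linker gene Hist1h1c and the H2B genes Hist1h2bc and Hist1h2bg were higher in non-BT cells than in T cells. Of 9 tested Hist2 genes, 3 were called lower and 1 higher in B than in T cells, and none of these calls held in every setting tried. Non-BT cells were higher than B cells for 13 of 51 histone genes and lower for 0, where 28.4% of all genes were called higher and 20% lower. Non-BT cells were higher than T cells for 17 of 51 and lower for 1, where 27.4% of all genes were called higher and 19.6% lower. B cells were higher than T cells for 3 of 51 and lower for 5, where 15.6% of all genes were called higher and 18.4% lower. As shares of the genes tested, 25.5%, 35.3% and 15.7% of the histone genes were called in the 3 comparisons, each below the 48.4%, 47% and 34% of all genes.

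Hist1h1c had 57.4, 48.1, 52.5 and 47.5 FPKM in the 4 young wild-type non-BT libraries. It had 16.2, 19.4, 23.4 and 21.1 FPKM in B cells and 12.1, 10.9, 11.7 and 16.7 FPKM in T cells. The non-BT values lay above all the others, by 1.33 ± 0.22 on the log2 scale over B cells (SE; limma adjusted p = 5.66e-06) and by 1.93 ± 0.22 over T cells (limma adjusted p = 4.44e-09). Hist1h2bc stood at 77.5, 65.4, 88.3 and 84.3 FPKM in non-BT cells, 54.5, 29.4, 47.3 and 48.4 in B cells, and 16.6, 10.2, 14.5 and 14.5 in T cells. Its 3 fractions did not overlap, and its level in T cells was lower than in non-BT cells by 2.43 ± 0.28 on the log2 scale (limma adjusted p = 3.20e-09) and lower than in B cells by 1.60 ± 0.28 (limma adjusted p = 1.22e-05).

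Hist1h2bg, an H2B gene of the same cluster, had 9.07, 8.99, 7.34 and 7.98 FPKM in non-BT cells, 3.04, 3.10, 1.65 and 1.07 in B cells and 0.813, 1.94, 1.35 and 1.45 in T cells. The non-BT values again lay above the rest, by 1.59 ± 0.33 over B cells and 1.99 ± 0.33 over T cells on the log2 scale (limma adjusted p = 0.000134 and 5.60e-06). Over B cells the H2B gene Hist1h2bj was higher by 1.34 ± 0.36 (limma adjusted p = 0.0023) and the H2A gene Hist1h2ac by 1.30 ± 0.33 (limma adjusted p = 0.00132). Over T cells the linker gene Hist1h1d was higher by 1.22 ± 0.32 (limma adjusted p = 0.00174), and the H2B gene Hist2h2bb was the only one of the 51 called lower, by -1.14 ± 0.43 (limma adjusted p = 0.0263), a call that was lost without the libraries labelled Psmb9 +/+ (adjusted p = 0.122), at a pseudocount of 0.1 (adjusted p = 0.0585) and without wild-type T library 4 or non-BT library 1 or 2 (adjusted p of 0.0569 to 0.0929).

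The Hist2 genes on chromosome 3 supplied 3 of the 5 genes lower in B than in T cells. The H2A gene Hist2h2ac had 3.71, 1.73, 6.99 and 3.31 FPKM in young wild-type B libraries and 8.16, 6.85, 9.58 and 13.8 in T libraries. The B library at 6.99 FPKM lay within the T range, and the difference of Hist2h2ac was -1.17 ± 0.34 (limma adjusted p = 0.00687). Hist2h2bb followed with -1.27 ± 0.43 (adjusted p = 0.0191) and the H2A gene Hist2h2ab with -0.86 ± 0.29 (adjusted p = 0.0184). The H4 gene Hist1h4h (-1.02 ± 0.36, adjusted p = 0.0252) and the H2A gene Hist1h2ak (-0.97 ± 0.34, adjusted p = 0.0236) completed the genes lower in B cells. Higher in B cells beside Hist1h2bc were Hist1h1c by 0.61 ± 0.22 (adjusted p = 0.0313) and the H2A gene Hist2h2aa1 by 0.86 ± 0.28 (adjusted p = 0.0169). Of these 8 calls, only that of Hist1h2bc held in every setting tried. Without the libraries labelled Psmb9 +/+ all 5 genes lower in B cells lost theirs (adjusted p of 0.0737 to 0.180). Leaving out 1 library ended the call of Hist1h1c for B library 2, 3 or 4 or T library 1, 2 or 3 (adjusted p up to 0.0966), and of Hist2h2aa1 for B library 1 or 2 or T library 2 (up to 0.0816). It ended those of Hist1h4h, Hist2h2ab and Hist2h2bb for B library 3 or T library 4 (up to 0.0952), of Hist2h2ab also for B library 4 (0.0565), and of Hist1h2ak for B library 2 or 4 or T library 4 (up to 0.110). Hist1h1c also lost its call with no filter (0.0563), and Hist1h4h, Hist1h2ak and Hist2h2bb with quantile normalization (0.0678 to 0.0952).

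By class, the median difference of non-BT over T cells was 0.83 for 5 tested H1 genes, 0.44 for 16 H2A genes, 0.63 for 13 H2B genes, 0.33 for 8 H3 genes and 0.00161 for 9 H4 genes on the log2 scale. The median of all 15143 genes was 0.06. Scaling bears on this count: quantile normalization moved the median of all genes by -0.21 for non-BT over B cells and by -0.15 for non-BT over T cells, and the histone calls became 7 higher and 2 lower, and 9 higher and 2 lower, in place of 13 and 0, and 17 and 1. For B against T cells the split became 7 higher and 2 lower in place of 3 and 5. Without the libraries labelled Psmb9 +/+, 3 genes stayed called between B and T cells, all of them higher in B cells.

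In young non-BT cells, 2 histone genes differed between the genotypes, both for H2B: Hist1h2bc was lower and Hist2h2bb was higher in homozygous animals. The count is 1 higher and 1 lower of 47, where 1.69% of the 13587 genes were called, 0.228% of them higher and 1.46% lower. The median difference of the 47 was 0.10 on the log2 scale, against -0.02 for all genes, with 28 differences above 0 and 19 below.

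Hist1h2bc had 77.5, 65.4, 88.3 and 84.3 FPKM in the young wild-type non-BT libraries and 49.6, 47.1, 47.2 and 44.9 FPKM in the homozygous ones. Every homozygous library lay below every wild-type library. The difference was -0.72 ± 0.15 on the log2 scale, a 1.65-fold lower level (limma adjusted p = 0.0372). It was -0.55 within library series 2 and -0.89 within library series 3 (2 against 2 libraries each).

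Hist2h2bb had 0.851, 1.25, 2.54 and 1.62 FPKM in the wild-type and 5.77, 6.45, 6.31 and 4.95 FPKM in the homozygous young non-BT libraries. The groups did not overlap, and the difference was 1.46 ± 0.33 on the log2 scale (limma adjusted p = 0.0442), or 1.80 and 1.11 within library series 2 and 3. The gene is short, at 381 bases, and its level rests on few fragments, an estimated median of 10.6 per library. It overlaps the long noncoding gene Gm42743 on the same strand and the antisense gene Gm20628 on the other, and only 50.2% of its windows are its own. Gm42743 had 0 to 0.17 FPKM in these 8 libraries and Gm20628 differed by 0.03 ± 0.25 (limma adjusted p = 0.98). Reads of the 2 strands cannot be told apart with this kit.

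Hist1h2be, another H2B gene, was next by p but did not pass the threshold, with a difference of -0.87 ± 0.20 (limma adjusted p = 0.051). It had 2.72, 2.33, 3.04 and 4.06 FPKM in wild-type libraries and 0.920, 1.33, 1.47 and 1.05 in homozygous libraries, without overlap. Its annotated span overlaps the linker gene Hist1h1e on the same strand, whose difference was 0.33 ± 0.30 (limma adjusted p = 0.68).

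The calls for Hist1h2bc and Hist2h2bb are close to the threshold. Both were lost with no filter on low values (adjusted p = 0.0761 and 0.103) and without the library labelled Psmb9 +/+ (adjusted p = 0.112 for both). Leaving out any of 7 of the 8 compared libraries, all but wild-type library 2, moved Hist1h2bc above the threshold (adjusted p of 0.0703 to 0.112), and leaving out any of the 8, or old wild-type library 3, did so for Hist2h2bb (0.0581 to 0.129), while the log2 differences stayed between -0.81 and -0.66 and between 1.32 and 1.63.

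**Figure D3:**
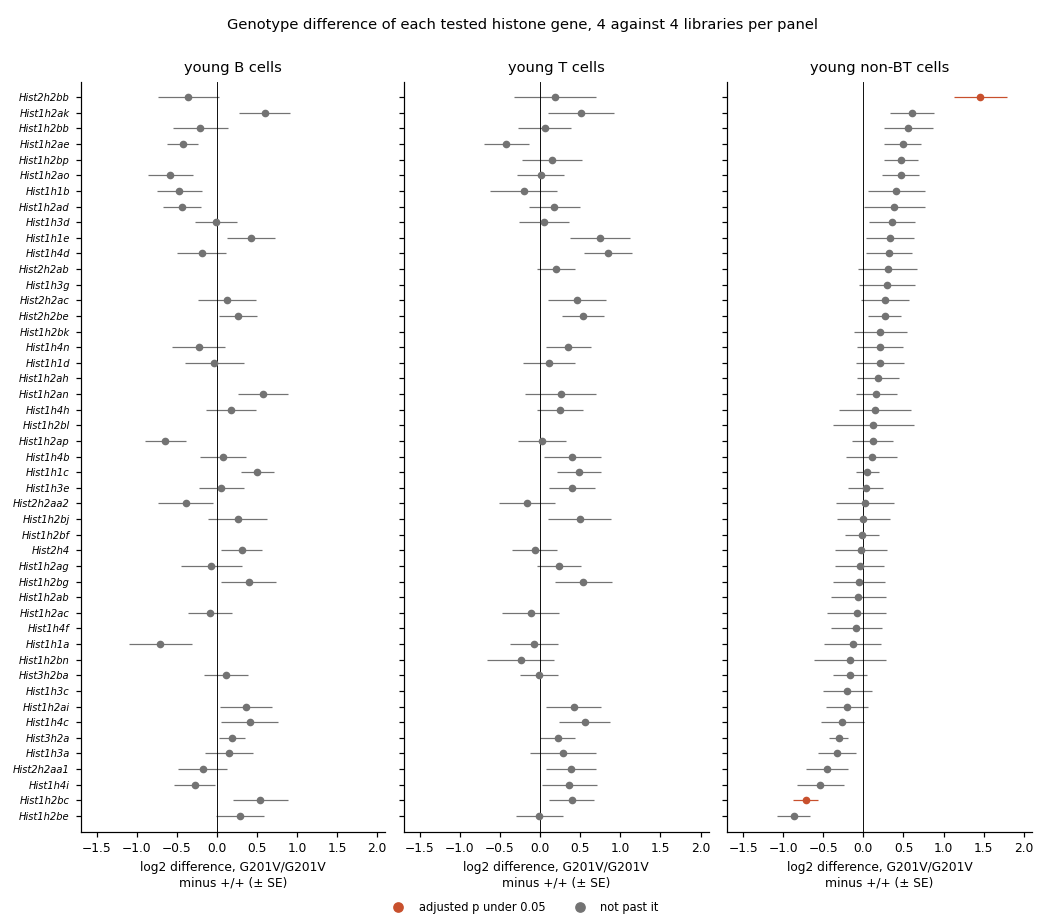
Log2 difference (homozygous minus wild type, ± SE from limma) of the 47 histone genes tested in young non-BT cells, and of the same genes where tested in young B and T cells (4 against 4 libraries each). The 2 coloured points are Hist1h2bc (-0.72) and Hist2h2bb (1.46) in non-BT cells, and no gene is coloured in the B and T panels.

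Marker genes of other cells moved in the same young non-BT comparison. All 7 plasma cell markers had lower values in homozygous libraries, and Jchain, Derl3 and Mzb1 passed the threshold (log2 differences of -2.08, -2.37 and -2.49). Their summed level was 782 to 1479 FPKM in wild-type and 436 to 507 FPKM in homozygous libraries. The 9 T cell markers were all below 0 in difference without a call (282 to 345 against 162 to 262 FPKM), and 6 of 7 markers of granulocyte and stem cell precursors were above 0 without a call (314 to 552 against 531 to 1732 FPKM). Among 6 neutrophil markers Csf3r was called lower, with summed levels of 9177 to 11800 against 7068 to 23810 FPKM. Of the 7 germinal centre B cell markers, Gcnt3 was at 0 in both groups and Rgs13 in the homozygous one. None of the other markers named here was at 0 throughout a group, and their part in the Hist1h2bc and Hist2h2bb differences was not tested.

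In young B cells limma called 0 of 37 histone genes between the genotypes (of all genes 0.0734%, 0.0163% higher and 0.0571% lower). An unadjusted p under 0.05 was found for 3 histone genes (8.11%), against 9.39% of all genes. Hist1h2bc had 54.5, 29.4, 47.3 and 48.4 FPKM in wild-type libraries and 67.9, 67.8, 55.6 and 66.4 in homozygous ones, so that all 4 homozygous libraries lay above, the reverse of non-BT cells. Its difference was 0.54 ± 0.34 (limma adjusted p = 0.669). Hist1h1c likewise did not overlap, with 16.2, 19.4, 23.4 and 21.1 against 29.0, 27.2, 26.4 and 31.9 FPKM (0.50 ± 0.21, adjusted p = 0.458). Values without overlap in the higher direction occurred for 4 of the 37 histone genes (Hist1h2bc, Hist1h1c, Hist1h1e and Hist1h4c) and for 2.19% of all genes, and in the lower direction for 1 (Hist1h2ae) and for 5.63%.

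Hist1h2ae had 8.20, 6.22, 9.73 and 6.36 FPKM in young wild-type B libraries and 5.10, 4.87, 5.79 and 5.63 in homozygous ones (-0.43 ± 0.19, limma adjusted p = 0.513). Its relative Hist1h2ap had 3.69, 5.55, 6.03 and 6.46 against 2.07, 2.99, 3.94 and 3.46 FPKM, with 1 library overlapping (-0.64 ± 0.26, adjusted p = 0.433). In the same libraries, 24 of 24 genes of G2 and mitosis had a difference below 0, with a median of -0.76 and no call, and the 7 germinal centre B cell markers summed to 27.3 to 121 FPKM in wild-type and 11.7 to 54.6 FPKM in homozygous libraries. Without overlap, the 8 myeloid markers summed to 578 to 820 against 262 to 303 FPKM, the 7 plasma cell markers to 1922 to 3111 against 981 to 1407 FPKM and the 12 erythroid markers to 214 to 1039 against 56.4 to 193 FPKM. What these groups of genes contributed to the histone values was not tested. The summed level of all 65 histone genes was 195 to 219 FPKM in the young wild-type and 227 to 268 FPKM in the homozygous B libraries, and without Hist1h2bc, Hist1h4c and Hist1h1c it was 120 to 129 against 104 to 137 FPKM.

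In young T cells limma again called 0 of 41 histone genes (0% of all genes, which had no call either). An unadjusted p under 0.05 was found for 1 histone gene (2.44%), against 8.67% of all genes. That gene was Hist1h4d, with 7.96, 7.36, 7.98 and 13.45 FPKM in wild-type and 15.9, 13.2, 16.7 and 23.0 in homozygous libraries (0.85 ± 0.30, limma adjusted p = 0.411). Its groups overlapped through wild-type library 4. Hist2h2be, a polyadenylated H2B gene, and Hist1h1e came next, at 0.53 ± 0.26 (adjusted p = 0.588) and 0.75 ± 0.37 (adjusted p = 0.595). The difference was above 0 for 31 of the 41 genes, with a median of 0.23 against 0 to 2 decimals for all genes. In the same T cell libraries the 7 plasma cell markers summed to 744 to 1232 FPKM in wild-type and 252 to 381 FPKM in homozygous libraries. The 8 myeloid markers summed to 775 to 1286 against 1332 to 1761 FPKM, and both sums were without overlap. The mean log2 level of these myeloid markers went the other way, also without overlap. It was 5.10 to 5.53 in wild-type and 4.46 to 5.08 in homozygous libraries, so the list had no common direction. The part of these cells in the histone values was not tested.

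The Hist1h4c values of the young genotypes did not overlap in any of the 3 fractions. It had 22.7, 25.7, 19.4 and 24.4 FPKM in wild-type and 25.9, 27.6, 38.2 and 33.1 in homozygous B libraries. In T cells it had 36.6, 36.4, 35.1 and 36.8 against 49.6, 51.1, 45.9 and 71.2 FPKM, and in non-BT cells 30.3, 31.6, 43.5 and 35.8 against 30.3, 29.2, 28.0 and 28.5 FPKM. The homozygous libraries were all higher in B and T cells and all lower in non-BT cells, although the highest homozygous and lowest wild-type non-BT libraries stood at 30.29 and 30.30 FPKM, and none of the 3 differences passed the threshold (0.41 ± 0.35, 0.56 ± 0.32 and -0.26 ± 0.27; adjusted p = 0.787, 0.652 and 0.721). In T cells it was the only one of 41 histone genes with all homozygous values above, against 3.08% of all genes, and none had them all below, against 3.44%. In non-BT cells 3 of 47 (Hist2h2bb, Hist1h2bp and Hist1h3d) had them all above, against 4.87% of all genes, and 4 (Hist1h2bc, Hist1h2be, Hist1h4c and Hist3h2a) all below, against 7.91%.

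**Figure D4:**
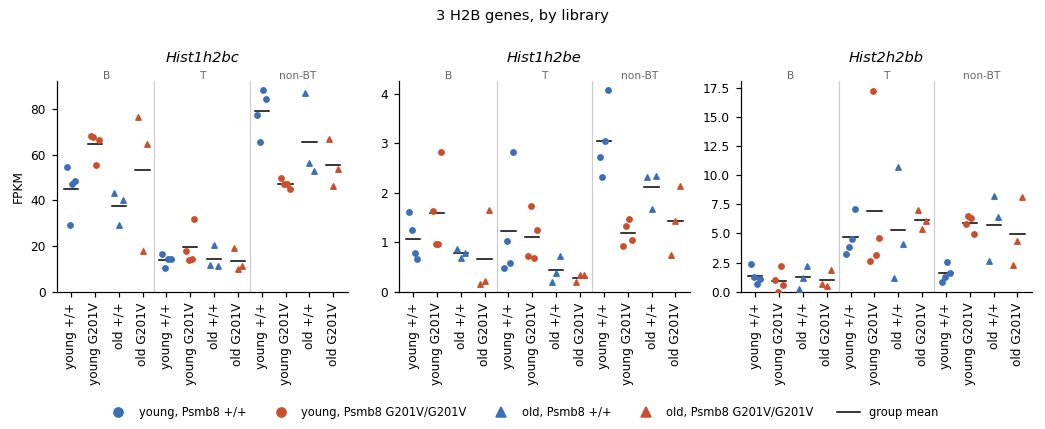
FPKM of the H2B genes Hist1h2bc, Hist1h2be and Hist2h2bb in each library (points), by group (columns; black lines are means). In young non-BT cells the homozygous Hist1h2bc values (44.9 to 49.6 FPKM) lie below the wild-type values (65.4 to 88.3 FPKM), in young B cells above them, and the homozygous Hist2h2bb values in young non-BT cells (4.95 to 6.45 FPKM) lie above the wild-type values (0.851 to 2.54 FPKM).

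Whether the genotype difference of young animals itself differed between fractions was tested in 1 fit over all 42 libraries. limma called 0 of 51 histone genes for non-BT against B cells (of all genes 0.911%, 0.376% higher and 0.535% lower), for non-BT against T cells (0.291%, 0.0264% higher and 0.264% lower) and for B against T cells (0.139%, 0.0198% higher and 0.119% lower), with 8, 7 and 1 at an unadjusted p under 0.05. The difference of differences for non-BT minus B cells was -1.26 ± 0.39 for Hist1h2bc and -1.16 ± 0.36 for Hist1h2be (limma adjusted p = 0.128 for both) and 1.81 ± 0.60 for Hist2h2bb (adjusted p = 0.174). With only the groups compared in the fit, these 3 passed the threshold (adjusted p = 0.00198, 0.0483 and 0.0244). For non-BT minus T cells it was -1.12 ± 0.39 for Hist1h2bc, 0.91 ± 0.33 for Hist1h2ae and -0.86 ± 0.36 for Hist1h2be (adjusted p = 0.306, 0.334 and 0.445), and for B minus T cells -1.04 ± 0.42 for Hist1h4d, -0.67 ± 0.37 for Hist1h2ap and -0.59 ± 0.38 for Hist1h2ao (0.498, 0.68 and 0.754). These comparisons share libraries with each other.

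In old animals, limma called 0 histone genes between the genotypes in B cells (0.00815% of all genes), T cells (0%) and non-BT cells (0%). At an unadjusted p under 0.05 there were 4, 0 and 4 histone genes (10.8%, 0% and 8.51%), against 10.1%, 3.81% and 5.78% of all genes. Hist1h2bc in old non-BT cells had 86.7, 56.3 and 53.0 FPKM in wild-type and 66.8, 46.2 and 53.6 in homozygous libraries, which overlapped. Hist2h2bb had 2.61, 8.23 and 6.44 against 2.31, 4.35 and 8.14 FPKM, also with overlap. The smallest p values belonged to Hist1h2ae in B cells (0.65 ± 0.22) and in non-BT cells (0.77 ± 0.27), with limma adjusted p = 0.363 and 0.744. In non-BT cells Hist1h2ae had 7.50, 14.2 and 8.10 FPKM in wild-type and 17.0, 20.2 and 14.3 in homozygous libraries, which did not overlap but came close between the last homozygous and the second wild-type library.

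The remaining genes named for old B cells were the linker gene Hist1h1b (0.75 ± 0.32, limma adjusted p = 0.455) and Hist1h4d (0.80 ± 0.35, adjusted p = 0.457). For old T cells they were Hist1h4d (0.57 ± 0.34), the H3 gene Hist1h3i (-0.59 ± 0.38) and the H2A gene Hist1h2an (0.60 ± 0.51), each at an adjusted p of 1.0. For old non-BT cells they were the H3 gene Hist1h3a (-0.69 ± 0.27, adjusted p = 0.80) and the H2B gene Hist1h2bf (0.58 ± 0.25, adjusted p = 0.823). None is a call.

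Between old and young animals limma also called 0 histone genes in each of the 6 comparisons. Of all genes, 0% were called in wild-type and 0.0163% in homozygous B cells. In T cells it was 0.227% in wild-type (0.205% higher, 0.0227% lower) and 1.14% in homozygous animals (0.993% higher, 0.144% lower). In non-BT cells it was 0.199% (0.0883% higher, 0.11% lower) and 2.16% (1.42% higher, 0.736% lower). At an unadjusted p under 0.05 there were 4 and 3 histone genes in B cells, 0 and 5 in T cells, and 7 and 5 in non-BT cells. The smallest adjusted p was that of Hist2h2bb in wild-type non-BT cells, at 0.126: it had 2.61, 8.23 and 6.44 FPKM in old and 0.851, 1.25, 2.54 and 1.62 in young libraries, so that the groups came close without overlap (1.33 ± 0.36). The H2A genes Hist1h2ak (1.01 ± 0.29, adjusted p = 0.153) and Hist1h2ao (0.75 ± 0.25, adjusted p = 0.199) followed in that comparison. There the 5 NK cell markers summed to 255 to 565 FPKM in old and 1227 to 1683 FPKM in young libraries. The B cell marker Cd79a was called higher in old homozygous T and non-BT cells (2.77 ± 0.48 and 2.35 ± 0.40, limma adjusted p = 0.0161 and 0.00784). The part of other cells in the age differences was not tested. Library series 1 holds only old and series 3 only young libraries, so age and series are partly confounded.

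In homozygous animals Hist1h2ae was among the 3 genes of smallest p in every fraction, with old minus young differences of 0.78 ± 0.21 for B, 0.81 ± 0.31 for T and 0.59 ± 0.25 for non-BT cells (limma adjusted p = 0.146, 0.243 and 0.265). Its values in B cells were 9.15, 11.1 and 9.58 FPKM in old and 5.10, 4.87, 5.79 and 5.63 in young libraries, without overlap. Hist2h2be lay in the other direction, at -0.63 ± 0.26, -0.82 ± 0.28 and -0.58 ± 0.22 (adjusted p = 0.288, 0.207 and 0.219). Hist1h1c in B cells (-0.69 ± 0.22, adjusted p = 0.208), the H3 gene Hist1h3e in T cells (-0.80 ± 0.31, adjusted p = 0.25) and Hist3h2a in non-BT cells (-0.29 ± 0.13, adjusted p = 0.284) completed the genes named in each. In wild-type B cells the named genes were Hist1h1b (-0.98 ± 0.30), Hist1h1d (-1.14 ± 0.39) and Hist1h2ap (-0.65 ± 0.28), at adjusted p of 0.709 to 0.734, and in wild-type T cells Hist2h2aa1 (0.69 ± 0.34), Hist1h3a (-0.81 ± 0.45) and Hist1h2ag (0.53 ± 0.30), at 0.49 to 0.566.

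The interaction of age and genotype gave 0 called histone genes in each fraction (0% of all genes in each). At an unadjusted p under 0.05 there were 5, 0 and 4 histone genes in B, T and non-BT cells (13.5%, 0% and 8.51%), against 7.07%, 3.87% and 5.32% of all genes. In B cells the interaction was 1.08 ± 0.30 for Hist1h2ae, 1.21 ± 0.43 for Hist1h1b and -0.82 ± 0.32 for Hist1h1c (limma adjusted p of 0.672 to 0.682). In T cells it was -0.93 ± 0.51 for Hist1h3i, -0.74 ± 0.42 for Hist1h1c and -0.62 ± 0.40 for Hist2h2be (adjusted p = 0.998). In non-BT cells it was -1.66 ± 0.51 for Hist2h2bb, 1.13 ± 0.39 for Hist2h2aa1 and -1.05 ± 0.44 for the H3 gene Hist1h3d (adjusted p of 0.872 to 0.911).

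Histone genes differed in how their level ran with that of mitotic RNA from library to library. For the 15 histone genes at 1 FPKM or more in all 42 libraries, the log2 level was correlated with the mean log2 level of 24 genes of G2 and mitosis over the 14 libraries of each fraction, making 45 relations, with 2-sided permutation p-values (100000 permutations) adjusted by Benjamini-Hochberg. These relations were computed after the levels had been seen. In each fraction 3 genes were positive past the threshold, and 0, 1 and 3 were negative past it in B, T and non-BT cells. The share of all genes past it was not computed, so these counts cannot be read as particular to histone genes. The permutations exchanged libraries across ages and genotypes. Same-numbered libraries of the 3 fractions may come from 1 animal, so the fractions may not be separate observations. All values of a library share its scaling to mapped fragments. Markers of other cells differed between the same non-BT groups: those of granulocyte and stem cell precursors summed to 314 to 552 FPKM in young and 685 to 3428 FPKM in old wild-type libraries, and erythroid markers to 691 to 2189 and 1128 to 12830 FPKM. Their part in the relations was not tested.

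Hist1h2ao followed the mitosis genes in non-BT cells with Pearson's r = 0.928 (adjusted permutation p = 0.00045; unadjusted p = 1e-05, the smallest these permutations can give) and Spearman's rho = 0.916 (adjusted p = 0.0009). Its r was 0.947 without the 2 libraries farthest from the median, 0.890 with group means removed and 0.967 within the 6 libraries of library series 2. In B cells its r was 0.821 and its rho 0.802 (adjusted permutation p = 0.00187 and 0.0108), and r was 0.767 without the 2 farthest libraries and 0.961 within library series 2. In T cells its r was 0.777 (adjusted permutation p = 0.00715) and its rho 0.530 (0.131). There r fell to 0.445 without the old homozygous and old wild-type libraries numbered 2 and was 0.0262 within library series 2. In T cells the relation thus rests at least in part on those 2 libraries. With group means removed and all libraries kept, r was 0.795. Library series 1 and 3 hold 4 libraries of a fraction, too few for a value.

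Hist1h2ap, with the same letters around its stem-loop, had r = 0.828 for B, 0.749 for T and 0.658 for non-BT cells (adjusted permutation p = 0.00187, 0.0176 and 0.0388), with rho of 0.736, 0.653 and 0.618 (adjusted p = 0.0262, 0.0685 and 0.0844). Without the 2 farthest libraries r was 0.701, 0.387 and 0.419, and within library series 2, which holds none of the old libraries numbered 2, it was 0.829, 0.456 and 0.753. In T cells the relation thus rests at least in part on the libraries left out, and in non-BT cells the smaller sets of libraries gave values on both sides of the full one. With group means removed and all libraries kept, r was 0.804 for B, 0.851 for T and 0.766 for non-BT cells. Most windows of Hist1h2ao and Hist1h2ap also occur in other genes, so the 2 cannot be taken as separate observations. Hist1h2ae, whose 75-base windows are its own to 65.6%, had r = 0.480, 0.818 and 0.693 (adjusted permutation p = 0.163, 0.00187 and 0.0194) and rho = 0.437, 0.877 and 0.587 (adjusted p = 0.225, 0.0009 and 0.0844). Its r without the 2 farthest libraries was 0.396, 0.654 and 0.654, and within library series 2 0.0233, 0.771 and 0.720. Hist1h4i reached r = 0.821 and rho = 0.719 in B cells (adjusted permutation p = 0.00187 and 0.0314), with 0.666 without the 2 farthest libraries and 0.499 within library series 2, and r = 0.217 and 0.194 in T and non-BT cells.

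Hist3h2a ran the other way. Its r was -0.823 for T and -0.819 for non-BT cells (adjusted permutation p = 0.00469 and 0.00187), its rho -0.600 and -0.899 (adjusted p = 0.0844 and 0.0009), and its r in B cells was -0.410. Without the 2 farthest libraries r was -0.464 for T and -0.839 for non-BT cells, and within library series 2 -0.574 and -0.848. In non-BT cells Hist3h2ba (r = -0.796, rho = -0.701; adjusted permutation p = 0.00613 and 0.0375) and Hist1h1c (r = -0.756, rho = -0.749; 0.0102 and 0.0254) were also negative, at -0.748 and -0.458 without the 2 farthest libraries and -0.768 and -0.419 within library series 2. The relations of Hist3h2a in T cells and of Hist1h1c in non-BT cells thus rest at least in part on the libraries left out. With group means removed and all libraries kept, their r was -0.780 and -0.715.

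**Figure D5:**
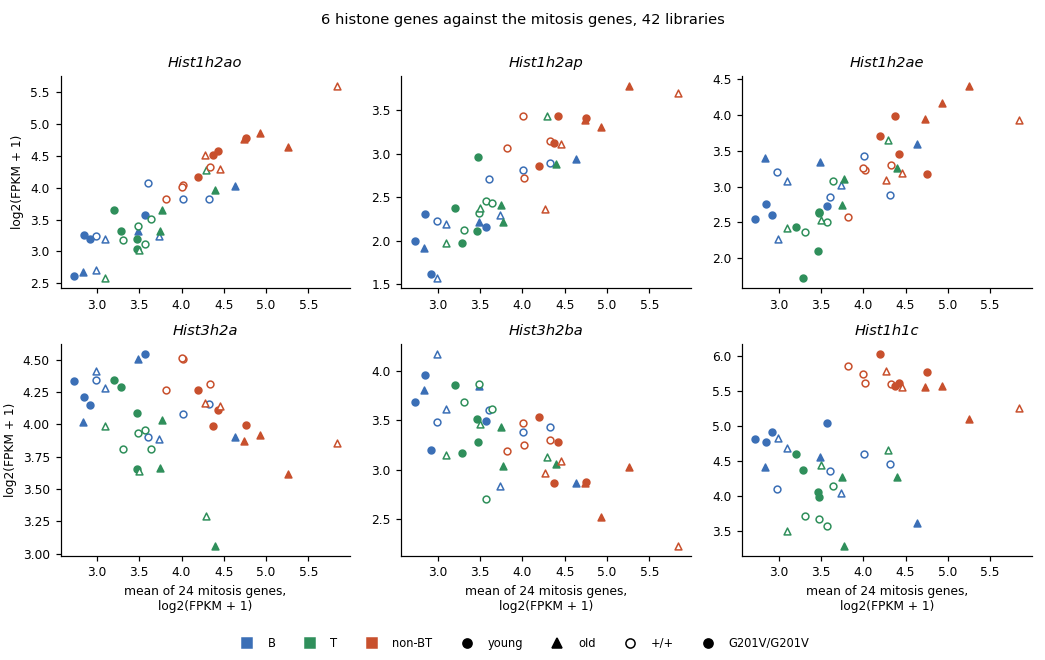
Log2(FPKM + 1) of 6 histone genes against the mean log2(FPKM + 1) of 24 mitosis genes in 42 libraries (colour: cell fraction; shape: age; open: +/+, filled: G201V/G201V). In non-BT cells Hist1h2ao rises with the mitosis genes (r = 0.928) and Hist3h2a falls (r = -0.819); the 2 libraries farthest to the right are the old non-BT libraries numbered 2.

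Genes that serve the histones gave few calls. Of 19 matched genes for histone gene transcription and 3′ end processing (among them Slbp, which encodes the stem-loop binding protein, and Npat, an activator of histone genes), 0 were called in any comparison of genotype or age; the same held for 21 histone chaperone and import genes, 9 tested replication-independent histone genes, 35 genes of DNA replication and S phase and 24 of G2 and mitosis. At an unadjusted p under 0.05, young non-BT cells had 0, 2, 0, 2 and 0 genes of these 5 lists between the genotypes, against 13.9% of all genes. Young B cells had 1, 2, 2, 3 and 9, against 9.39% of all genes. In old against young wild-type non-BT cells 18 S phase and 18 mitosis genes had such a p, against 15.9% of all genes. In young non-BT cells 33 of 35 S phase genes and 24 of 24 mitosis genes had a difference above 0, with medians of 0.30 and 0.39, beside a median of 0.10 for the histone genes and -0.02 for all genes. In young B cells the medians were -0.29 for S phase (2 of 35 above 0), -0.76 for mitosis and 0.07 for the histone genes. In old against young wild-type non-BT cells they were 0.58 (35 of 35 above 0), 0.85 (24 of 24) and 0.12.

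Between the fractions of young wild-type animals these lists did have calls, to be read against the 27.4% of all genes called higher and 19.6% lower in non-BT than in T cells, and the 28.4% and 20% against B cells. Of the 9 replication-independent histone genes, 6 were higher and 1 lower in non-BT than in T cells. H3f3a, which encodes the H3.3 variant laid down outside replication, was among the higher ones (1.01 ± 0.12, limma adjusted p = 6.67e-09). Against B cells H3f3a was called lower in non-BT cells (-0.39 ± 0.12, limma adjusted p = 0.00614). H1f0, a linker histone of non-dividing cells, was higher in non-BT than in B cells by 2.44 ± 0.28 (limma adjusted p = 4.41e-09). Of the 21 chaperone genes, 1 was higher and 8 lower in non-BT than in T cells, led by Ipo4, an importin that carries histones (-1.05 ± 0.16, adjusted p = 8.39e-07), and Dnajc9, an H3-H4 chaperone (-0.99 ± 0.16, adjusted p = 2.64e-06). Of the 19 genes for expression and 3′ end processing, 2 were higher and 5 lower in non-BT than in B cells, with Cpsf2 and Cpsf3, subunits of the cleavage complex, at -0.88 ± 0.12 and -0.61 ± 0.09 (adjusted p = 1.66e-07 and 1.04e-06).

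How reads were divided limits what the lower genes can show. In 28 of the 65 genes under 50% of the 75-base windows are unique, and in 6 all are. Of 38 genes with at least 8 values of at most 6 fragments, 23 had 90% or more of them at whole multiples of 1 fragment (within 0.15). In 12 of the 38 the share was under 62%, among them Hist2h2bb at 31.3% and Hist2h2aa1 at 52.9%. The share did not always follow the unique windows. Hist1h1a, with all windows unique, had 28.6% whole values, and Hist1h2ai, with 10.7% unique, had 100%. Whether the reads of a gene were divided thus cannot be read from this share. Overlap with another gene was a further limit for Hist3h2a, which overlaps Trim17 on the same strand; Trim17 stayed at or under 0.516 FPKM in all libraries.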

How the data were processed

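RNA of 42 spleen cell libraries was made into cDNA with the SMART-Seq HT kit and into sequencing libraries with Nextera XT, per the labels' protocols. The deposited FPKM values per gene were made by the authors with HISAT2 2.1.0, Cufflinks 2.2.1 and Cuffdiff on GRCm38.p4, per the submitters' processing notes. The annotation release is not given in the sources used here. Symbols came from GENCODE M21. Differences were fitted with limma 3.58.1 (R 4.3.3) with an intensity trend on log2(FPKM + 1), within B, T and non-BT cells over the 4 groups of age and genotype, and, for comparisons between fractions, over the 42 libraries together with a random block (estimated correlation 0.0771) that takes same-numbered libraries of a genotype and age as 1 animal, which the labels do not state. Genes had to reach 1 FPKM in at least 3 libraries. The fits were tested on simulated data. Correlations used Python 3.11.15 with numpy 2.4.6.

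The members and the gene lists were chosen with earlier results of these data known. The text names the 12 members of highest mean and, in each comparison, all called members up to 8, otherwise the 4 largest rises and falls. Where none was called it names the 3 of smallest p. Hist1h2be in young non-BT cells, and Hist1h2bc, Hist1h4c and other members given outside this rule, were chosen after their values were seen. Alternatives were another pseudocount, no filter, quantile normalization, array weights, library series, a replicate block, fewer groups and libraries left out. Depth is estimated from value steps, so no counting intervals are given. Deviations of same-numbered old libraries of both genotypes had an r above 0 in every pair. It was 0.19 to 0.287 in B, 0.0951 to 0.213 in T and 0.0374 to 0.196 in non-BT cells. For young pairs r ran from -0.0486 to 0.16 in B, -0.0135 to 0.153 in T and -0.0269 to 0.145 in non-BT cells.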

Additional observations from a re-analysis of the deposited data

Results flagged for a closer look

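In groups of 4 libraries, 17 of 192 tested sets of values of 32 named histone genes held a library far from the other 3. Chance flags about 1 in 20 where values are continuous. This does not hold for sets with the other libraries at 0, as for Hist1h3i, Hist1h2an and Hist2h2ab in B cells, so the count is not read as an excess. No explanation was tested for any of the 17.

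Among the H2B genes, Hist1h2bc in young homozygous B library 3 stood at 55.6 FPKM below the other 3 at 66.4 to 67.9. Hist2h2bb reached 17.2 FPKM in young homozygous T library 2, against 2.64 to 4.57 in the others. Hist1h2bg reached 13.2 FPKM in young homozygous non-BT library 4 (others 6.32 to 7.04), and Hist1h2bf 1.43 FPKM in young wild-type B library 3 (others 0.194 to 0.380). Hist1h2bj was low, at 5.74 FPKM, in young wild-type non-BT library 1 (others 7.74 to 7.88).

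Among the H2A genes, Hist1h2ae was low in young wild-type non-BT library 1, at 4.97 FPKM (others 8.41 to 8.86), and Hist1h2ac high in young wild-type non-BT library 4, at 7.51 FPKM (others 4.19 to 4.68). Hist1h2an was 1.55 FPKM in young wild-type B library 1 (others 0) and 2.30 FPKM in young homozygous non-BT library 4 (others 1.10 to 1.21). Hist2h2ab was 0.813 FPKM in young wild-type B library 1 and 0.542 FPKM in young homozygous B library 3, with the others of each group at 0.

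The H4 gene Hist1h4d stood at 13.45 FPKM in young wild-type T library 4 (others 7.36 to 7.98), and Hist1h4i at 12.1 FPKM in young homozygous T library 4 (others 4.01 to 5.15). The linker gene Hist1h1d was 4.17 FPKM in young homozygous B library 4 (others 3.67 to 3.75) and 6.29 FPKM in young homozygous non-BT library 3 (others 8.72 to 8.84). The H3 gene Hist1h3i was 0.852 FPKM in young homozygous B library 3 (others 0) and 1.56 FPKM in young wild-type T library 4 (others 0 to 0.232).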

How the results depend on the processing

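Of 2280 values of the 70 named differences under the alternatives, 2218 kept direction and side of the threshold, 53 lost the threshold, 8 gained it and 1 reversed: Hist1h3a in old against young wild-type T cells, at 0.058 with library series as a covariate against -0.81 as reported and -2.41 at a pseudocount of 0.1. The causes were not tested. The 2 calls in young non-BT cells became 0 with no filter and 0 without the libraries labelled Psmb9 +/+. Calls between non-BT and T cells went from 18 to 11 under quantile normalization, and between B and T cells from 8 to 13 with array weights and 3 without the libraries labelled Psmb9 +/+. For the genotype difference in non-BT against B cells, 0 became 4 with array weights, 3 with only the groups compared and 2 without the old libraries numbered 2. Against T cells 0 became 1 with only the groups compared and 1 without those libraries. Leaving those libraries out was chosen after seeing the data, as were the alternatives to the correlations.

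Leaving out 1 library at a time gave 0 to 3 calls for genotype in young non-BT cells, 4 to 8 between B and T cells, 9 to 14 between non-BT and B cells and 13 to 19 between non-BT and T cells. It gave 0 to 1 for age in homozygous T cells, 0 to 2 for age in homozygous non-BT cells, 0 to 1 for the genotype difference in non-BT against B cells, and 0 in each other comparison. With the replicate block, young non-BT cells kept a count of 2 calls, and every other comparison within a fraction had 0. Between fractions, the fits with no replicate block gave 8, 13 and 17 calls in place of 8, 13 and 18. Low genes are limited by few fragments and shared reads.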
